A study of Mus musculus with 18 samples.

Results

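The genes for the subunits of RNA polymerases I, II and III, for the Mediator complex and for the basal transcription factors were followed in mouse embryonic stem cells with and without a knockout of Tet2. Members were the loci of the RNA-seq table that carry a single symbol of the form Polr1, Polr2 or Polr3 with a letter, Med with a number, Taf with a number, Gtf2 or Gtf3, with pseudogenes left out and a mean over the libraries of at least 1 RPKM. RPKM counts reads per kilobase of transcript, scaled to the mapped reads of the library, so levels can be set side by side between genes. The rule gave 81 genes of the 11855 loci at or above that mean, and of 14864 loci listed. Of the members, Taf7l, at a mean of 1.31 RPKM, and Taf3, at 1.69 RPKM, lay just inside the limit. Gtf2ird2, at 0.92 RPKM, and Taf9b, at 0.74 RPKM, matched by name and lay just outside it. Another 6 loci list a matching gene together with overlapping genes (Taf1d, Med12, Med23, Taf9, Gtf3c2 and Med24) and were not counted as members, since their reads cannot be given to a single gene.

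RNA polymerase I transcribes ribosomal RNA, RNA polymerase II transcribes messenger RNA, and RNA polymerase III transcribes transfer RNA and other short RNAs. At promoters of RNA polymerase II, TFIID recognises the core promoter, TFIIA and TFIIB join it, TFIIF brings the polymerase, and TFIIE and TFIIH open the DNA. Mediator bridges this assembly and the activators bound at enhancers, which in embryonic stem cells include the pluripotency factors. By complex, the 81 genes were 26 polymerase subunits, 19 Mediator subunits, 13 TFIID subunits, 5 TFIIH subunits, 7 subunits of TFIIA, TFIIB, TFIIE or TFIIF, 6 of TFIIIA or TFIIIC, 2 of the RNA polymerase I factor SL1, 2 of the TFII-I family, and Taf15, an RNA-binding protein of the FET family.

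The series asks where 5-methylcytosine (m5C) lies in RNA and what Tet2, an enzyme that oxidises 5-methylcytosine, does to it. The groups used here were Tet2 KO and wild type embryonic stem cells, cultured with LIF over mouse embryonic fibroblast feeder cells. For RNA-seq, cells of each genotype were collected after 0, 3 and 6 h in actinomycin D, which blocks transcription, at 5 µg/ml, with 1 library per genotype and time. For RNA bisulfite sequencing, in which a cytosine left unconverted is read as m5C, there were 2 libraries of Tet2 KO and 2 of wild type cells without the drug. All libraries were made from poly(A) RNA, and how the Tet2 allele was made is not given in the sources used here. Whether libraries came from separate cultures is not stated by the labels. The bisulfite p-values measure the spread between the libraries of a genotype, which may be technical. With 1 RNA library per genotype and time, the RNA p-values measure departures from the fitted model instead. In the comparison of genotypes, a difference that varies with time counts as error. In the fit of change per hour, so does any departure from a straight line.

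Tet2 RNA was at 22.98, 11.2 and 10.1 RPKM after 0, 3 and 6 h in Tet2 KO cells, against 23.7, 17.9 and 12.5 RPKM in wild type cells, a difference that did not pass the test (limma adjusted p = 0.593). A total over all exons does not check a deletion that leaves the rest of the transcript. Of 10 embryonic stem cell markers, 8 were listed, without Sox2 and Dppa5a, and summed to 1033 to 1202 RPKM in Tet2 KO libraries and 887 to 1230 RPKM in wild type libraries. Of 10 fibroblast feeder markers, 8 were listed, without Col3a1 and Lum, and summed to 516 to 688 RPKM in Tet2 KO libraries and 460 to 731 RPKM in wild type libraries, and the part of feeder cells in the results was not tested. Pou5f1 and Tdgf1 made up most of the first sum, and Vim most of the second. Zfp42, a pluripotency marker, was at 30.6, 10.8 and 6.79 RPKM in Tet2 KO cells, against 120.2, 52.5 and 24.7 RPKM in wild type cells, and was lower by the test (limma adjusted p = 0.0434). Lin28a was at 58.1, 67.3 and 65.5 RPKM in Tet2 KO cells, against 35.9, 43.9 and 39.3 RPKM in wild type cells, and did not pass (limma adjusted p = 0.309). The part of these differences in the members' values was not tested. In bulk RNA, fewer cells of a type and less RNA per cell cannot be told apart. The table holds no read counts, and the depth of the libraries relative to each other could be settled only up to a factor. The Tet2 KO libraries at 0 and 3 h held the highest value for 27 members (33.3%, against 25.2% of all loci) and 24 members (29.6%, against 21.0%), and the wild type library at 6 h held the lowest for 43 (53.1%, against 41.5% of all loci).

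Of the 81 genes, 70 matched a promoter in the RefSeq table of build GRCm38.p6. In the 250 bases before the start, the ETS core CCGGAAG, read on both strands, was in 22.9% of the 70 member promoters. It was in 9.13% of 17492 protein-coding promoters, which were taken without the limit of 1 RPKM that the members had to pass. The GC box GGGCGG was in 55.7% of the member promoters, against 42.7% of all, the CCAAT box in 34.3%, against 36.3% of all, and TATAAA in 15.7%, against 12.4% of all. The member promoters were also richer in CpG, with a median of 17.5 against 10 in all, and in GC, at 58% against 55.2%. The ETS core and the GC box were not compared at matched base content or among expressed genes alone. The 4 promoters below are shown because Med18 had the lowest slope in actinomycin D, Polr2f had the highest level, and the paralogs Polr3g and Polr3gl had the smallest p-values between genotypes. Each is the last 120 bases before the start, 5′ to 3′ on the gene's strand, with capitals marking a GC box in Med18, an ETS core in Polr2f and Polr3g, and CCAAT boxes in Polr3gl.
Med18 (chr4:132463922-132464041, minus strand): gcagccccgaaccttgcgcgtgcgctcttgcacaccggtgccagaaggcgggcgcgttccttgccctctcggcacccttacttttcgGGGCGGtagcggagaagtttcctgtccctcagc
Polr2f (chr15:79141205-79141324, plus strand): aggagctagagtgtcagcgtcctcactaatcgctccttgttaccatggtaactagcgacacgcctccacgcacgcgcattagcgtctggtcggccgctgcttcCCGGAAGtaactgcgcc
Polr3g (chr13:81711014-81711133, minus strand): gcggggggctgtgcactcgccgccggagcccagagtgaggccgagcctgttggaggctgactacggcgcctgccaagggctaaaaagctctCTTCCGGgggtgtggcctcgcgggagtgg
Polr3gl (chr3:96594182-96594301, minus strand): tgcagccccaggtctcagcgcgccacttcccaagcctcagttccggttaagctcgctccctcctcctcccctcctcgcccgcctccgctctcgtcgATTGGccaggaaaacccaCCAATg
The paralogs differ in these letters: within the 120 bases, Polr3g holds an ETS core and no CCAAT box, and Polr3gl holds 2 CCAAT boxes and no ETS core. A match in these windows is a description of the letters and not evidence that a factor binds.

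Subunits shared between polymerases had the highest median levels among the complexes, and Mediator had low ones. The 5 subunits common to all 3 polymerases had a median of 59.3 RPKM over the 6 libraries, and the 7 of RNA polymerase II had a median of 31.0 RPKM, against 12.7 RPKM over all 81 members and 7.25 RPKM over all loci tested. Polr2f, whose product is the small common subunit RPB6, was highest of all members. It measured 68.4, 93.0 and 71.0 RPKM at 0, 3 and 6 h in Tet2 KO cells, against 56.4, 84.4 and 88.8 RPKM in wild type cells. Among the other common subunits, the means were 60.9 RPKM for Polr2e, 59.3 RPKM for Polr2h and 46.6 RPKM for Polr2k. Polr2l, which codes for the common subunit RPB10, stood far below them at a mean of 6.77 RPKM, with its 6 values between 5.02 RPKM in Tet2 KO cells and 8.13 RPKM in wild type cells, both at 0 h. The pair shared by polymerases I and III, Polr1c and Polr1d, averaged 58.6 and 43.1 RPKM. Subunits particular to polymerase I (Polr1a at 17.4, Polr1e at 14.1 and Polr1b at 9.78 RPKM) and to polymerase III (Polr3k at 5.28 to Polr3g at 16.0 RPKM) were lower. The largest subunit of polymerase II, Polr2a, averaged 26.4 RPKM, and the lowest and highest of that group were Polr2i, at 22.0 RPKM, and Polr2g, at 50.9 RPKM.

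Mediator subunits were expressed at 2.64 RPKM (Med31) to 19.97 RPKM (Med8). By module, the medians were 8.93 RPKM for the head, 5.42 for the middle, 6.09 for the scaffold and tail and 6.07 for the kinase module. The lowest members of these modules were Med18 (6.63 RPKM), Med31, Med16 (3.51 RPKM) and Med13 (5.25 RPKM), and the highest were Med8, Med21 (15.7 RPKM), Med25 (13.4 RPKM) and Med13l (6.88 RPKM). TFIID subunits do not sit at 1 level: they ran from Taf7l, at 1.31 RPKM, to Taf10, at 64.6 RPKM. Taf10, a histone-fold subunit also found in the SAGA coactivator, measured 55.0, 94.7 and 59.4 RPKM in Tet2 KO cells, against 60.0, 52.0 and 66.3 RPKM in wild type cells, so that only the Tet2 KO library at 3 h was far from the others. TFIIH ran from Gtf2h2 (12.02 RPKM) to Gtf2h1 (45.3 RPKM), the TFIIA, TFIIB, TFIIE and TFIIF group from Gtf2a1 (8.19 RPKM) to Gtf2a2 (44.2 RPKM), and TFIIIA and TFIIIC from Gtf3c4 (3.60 RPKM) to Gtf3c6 (36.3 RPKM). Within TFIIIC the highest mean was 10.1 times the lowest. SL1 subunits Taf1a and Taf1b averaged 4.71 and 4.89 RPKM, Gtf2ird1 and Gtf2i averaged 10.4 and 20.7 RPKM, and Taf15 averaged 49.6 RPKM.

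**Figure D1:**
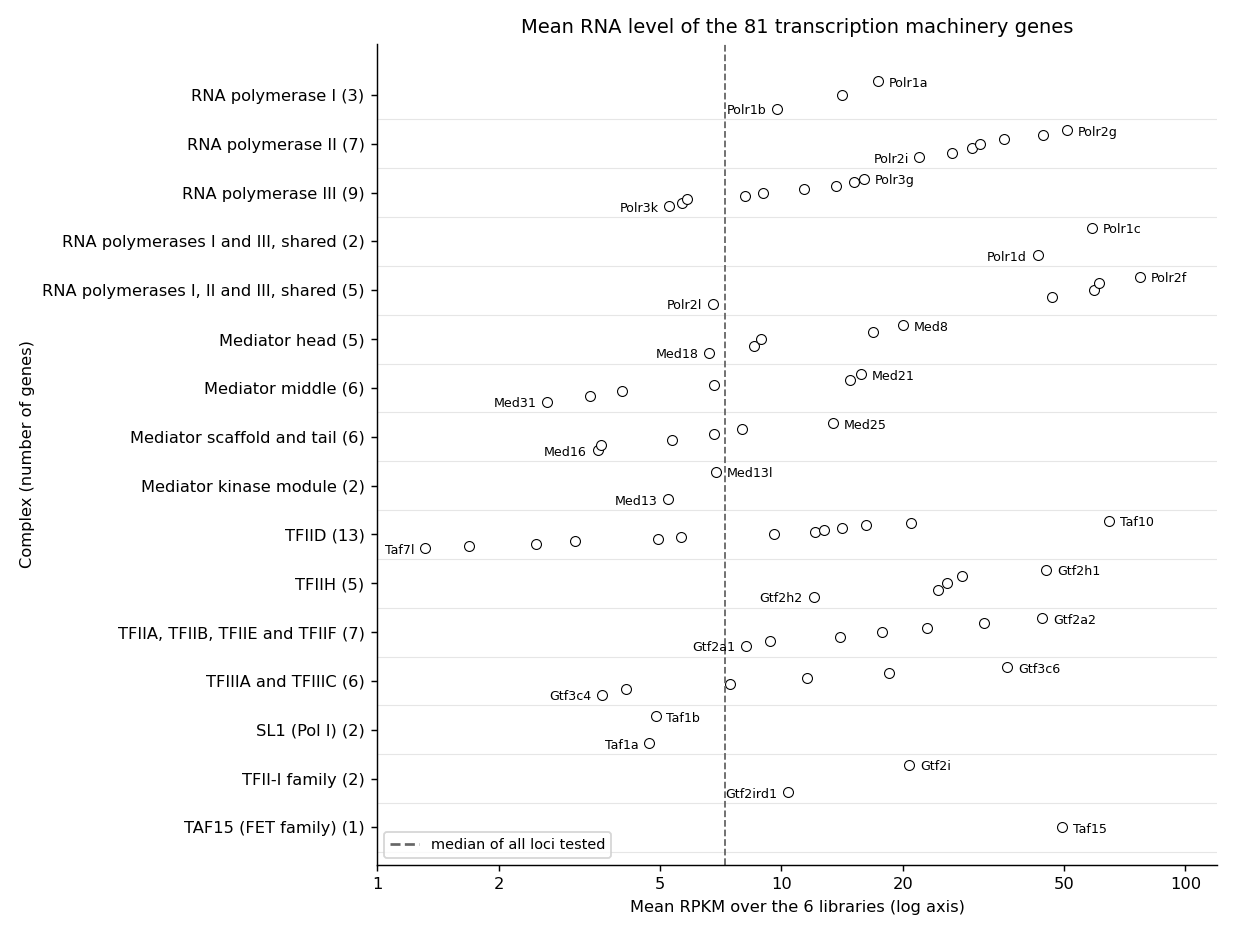
Mean RPKM over the 6 libraries (log axis) of each of the 81 genes, by complex, with the lowest and highest gene of each complex named and the median of all loci tested (7.25 RPKM) as a dashed line. The shared polymerase subunits other than Polr2l sit to the right, and most Mediator subunits sit near or left of the line.

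During actinomycin D, 10 members fell and none rose. These were 5 Mediator subunits (Med18, Med7, Med4, Med13 and Med17), 2 TFIID subunits (Taf5 and Taf8), Gtf2b of TFIIB, Gtf2h2 of TFIIH and Gtf3c4 of TFIIIC. None of the 26 polymerase subunits among the members was called, beside a background of 7.91% of all loci falling. Whether 0 of 26 differs from that share was not tested. The slope is the change in log2(RPKM + 1) per hour in a limma fit over all 11855 loci and both genotypes, and called means a Benjamini-Hochberg adjusted p under 0.05. The 10 are 12.3% of the members, beside a background of 7.91% of all loci falling and 0.118% rising. The median slope of the members was −0.05 per h, against −0.05 over all loci. Because 1 RPKM is added before taking logs, a slope understates the change of low genes. All 10 declined at each step in both genotypes, and their median level at 6 h was 31.3% of that at 0 h in Tet2 KO cells and 24.3% in wild type cells. For the 71 members not called, these medians were 89.7% in Tet2 KO cells and 77.1% in wild type cells. The 10 were picked for falling slopes in these same libraries, so these values describe the calls and do not support them. At 0 h the 10 had a median of 11.9 RPKM in Tet2 KO cells and 10.8 RPKM in wild type cells, and the 71 had 14.5 RPKM in Tet2 KO cells and 12.9 RPKM in wild type cells. A library's values are scaled to its own total, so a slope compares a gene with the rest of its library and is not an absolute decay rate.

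The count depended on the scaling and on single libraries, as did the share of all loci called. It was 2 (Med18 and Med7) after quantile normalization, beside 0.919% of all loci. It was 1 (Med18) when libraries were shifted to the same median, beside 0.523%, a shift that turned the median slope of all loci to 0.03 per h. It was 7 when libraries were shifted to ribosomal protein and oxidative phosphorylation genes, beside 4.48%. A pseudocount of 0.1 gave 12 members, beside 8.19%, and a mean of at least 5 RPKM gave 8 of 67, beside 8.83%. Without the Tet2 KO libraries at 0 and 6 h there were 2 and 6, beside 1.46% and 6.12% of all loci. Without the Tet2 KO library at 3 h there were 15 (the 10 together with Med31, Polr3d, Polr3e, Polr3f and Taf3), beside 12.1%. Without the wild type libraries at 0, 3 and 6 h there were 1, 2 and 0, beside 0.936%, 1.8% and 0%. In Tet2 KO cells alone 0 members were called, beside 0%, and in wild type cells alone 9 were, beside 10.6%. All 10 had a negative slope in each of these fits that held them. Med7, Gtf3c4 and Taf5 were not in the fit with a mean of at least 5 RPKM. With 6 h set against 0 h alone, 10 members were called lower, beside a background of 7.15%, and with 3 h against 0 h none was, beside 0.54% of all loci, while at an unadjusted p under 0.05 there were 9 lower members, beside 10.6% of all loci, and 5 higher ones, beside 3.86%.

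**Figure D2:**
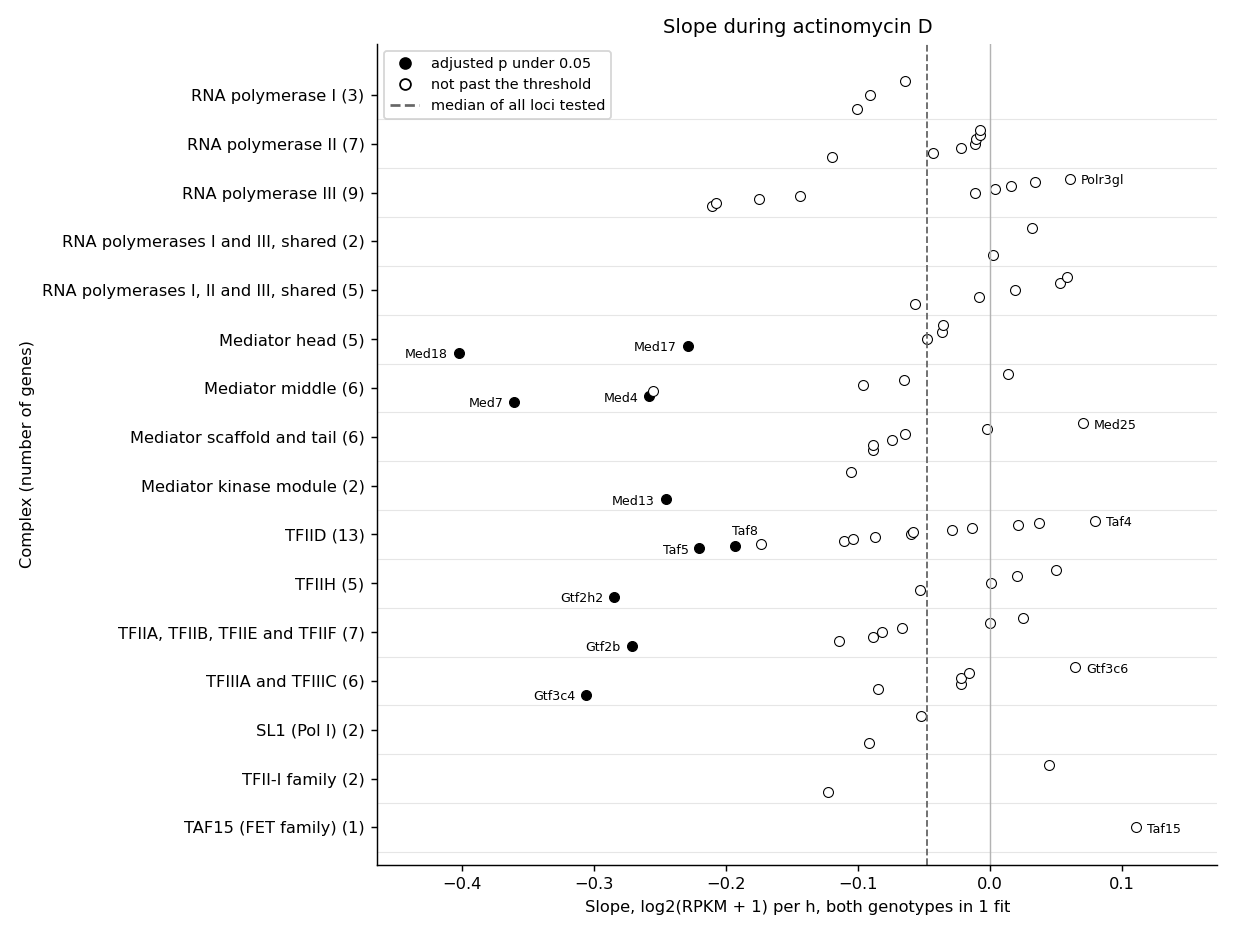
Slope of each of the 81 genes during actinomycin D, in log2(RPKM + 1) per h, by complex, with filled points past the threshold and the median of all loci tested (−0.05) as a dashed line. The 10 filled points lie between −0.40 (Med18) and −0.19 (Taf8), and none lies among the 26 polymerase subunits.

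Mediator held 5 of the 10 genes called, which is 26.3% of its 19 members. Med18, part of the movable jaw of the Mediator head, measured 14.3, 6.05 and 2.29 RPKM in Tet2 KO cells, against 12.5, 3.50 and 1.21 RPKM in wild type cells. It ended at 16.0% of its 0 h level in Tet2 KO cells and 9.67% in wild type cells, and its slope of −0.40 ± 0.05 per h (SE) was the lowest of the 81 (adjusted p = 0.00725). Med7, a middle-module subunit that pairs with Med21, measured 8.04, 4.66 and 1.22 RPKM in Tet2 KO cells, against 6.77, 2.92 and 0.584 RPKM in wild type cells (slope −0.36 ± 0.05 per h, adjusted p = 0.00898). For both genes the 6 h values of both genotypes lay below every other value. Its partner Med21 measured 18.1, 23.6 and 12.5 RPKM in Tet2 KO cells, against 14.0, 17.5 and 8.55 RPKM in wild type cells, and was not called (slope −0.10, adjusted p = 0.367). Med4, which anchors the middle module, measured 20.4, 14.6 and 5.56 RPKM in Tet2 KO cells, against 22.4, 17.9 and 7.90 RPKM in wild type cells (slope −0.26, adjusted p = 0.0202). Med17, the scaffold of the head, measured 21.2, 18.2 and 9.53 RPKM in Tet2 KO cells, against 30.4, 13.0 and 8.83 RPKM in wild type cells (slope −0.23, adjusted p = 0.0278). Here the Tet2 KO cells had lost little by 3 h and the wild type cells most of their total loss.

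The kinase module holds the paralogs Med13 and Med13l, which tether the CDK8 kinase to Mediator. Med13 fell, measuring 9.5, 4.04 and 2.93 RPKM in Tet2 KO cells, against 8.26, 4.59 and 2.20 RPKM in wild type cells (slope −0.25 ± 0.05, adjusted p = 0.0201). Med13l measured 8.91, 5.92 and 5.42 RPKM in Tet2 KO cells, against 8.67, 7.10 and 5.23 RPKM in wild type cells (slope −0.11 ± 0.04, adjusted p = 0.18). The paralogs started at like levels, and Med13 ended lower in both genotypes; the difference between their slopes was not tested. Med31, a small middle subunit, had a slope of −0.25 per h, near that of Med4, but a larger spread (adjusted p = 0.0562). It measured 4.57, 2.94 and 0.279 RPKM in Tet2 KO cells, against 3.35, 3.41 and 1.27 RPKM in wild type cells. In the scaffold and tail none of 6 was called. There Med25, a tail subunit that activators bind, measured 11.3, 16.3 and 10.1 RPKM in Tet2 KO cells, against 7.57, 19.0 and 16.1 RPKM in wild type cells, and had the third highest slope of all members (0.07, adjusted p = 0.6).

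**Figure D3:**
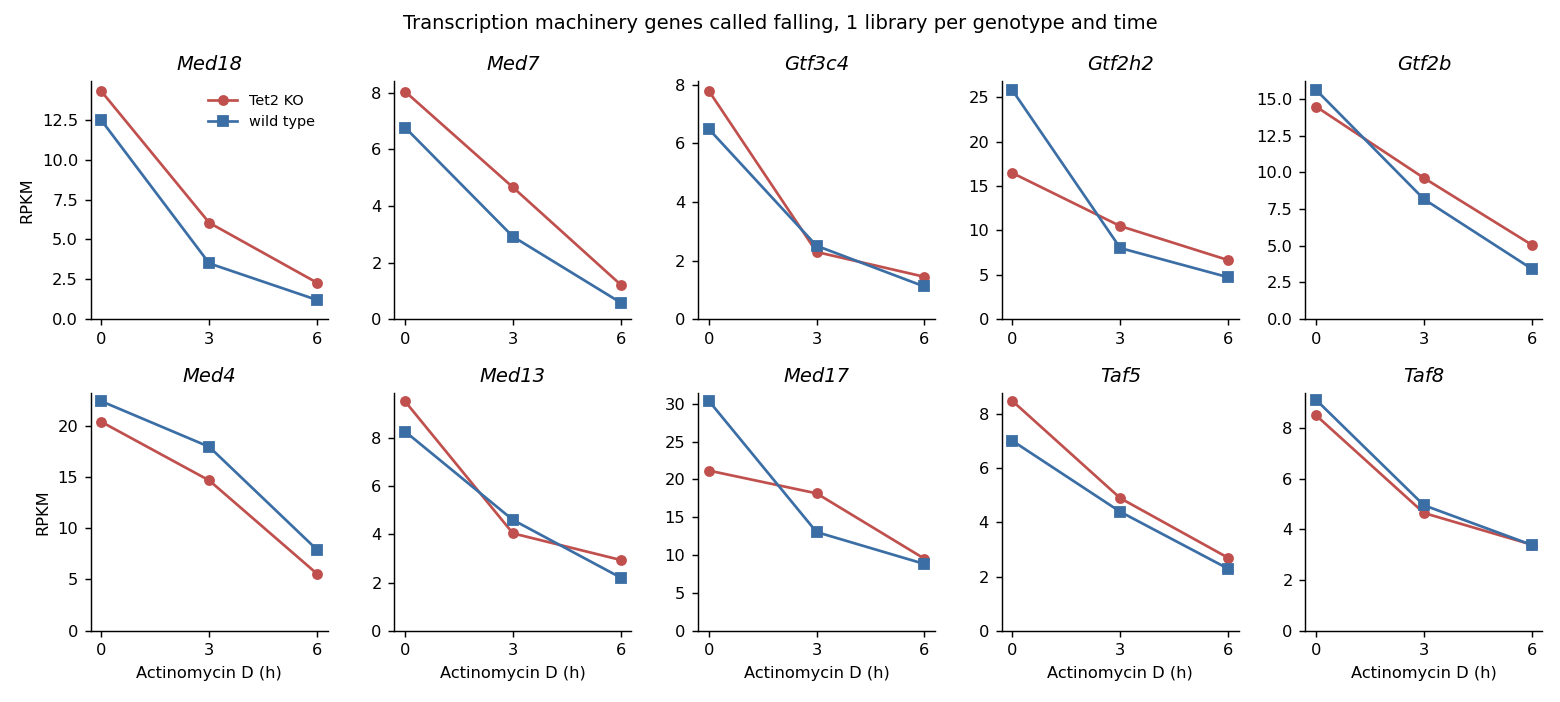
RPKM against hours of actinomycin D for the 10 genes called, Tet2 KO as red circles and wild type as blue squares, 1 library per point, each panel with its own axis from 0. Every line goes down at both steps, and the genotypes cross in several panels (Gtf2h2, Gtf2b, Gtf3c4, Med13, Med17 and Taf8).

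Among the basal factors, the calls were spread over 4 complexes. Gtf2b encodes TFIIB, the single polypeptide that places polymerase II at the start site. It measured 14.5, 9.61 and 5.06 RPKM in Tet2 KO cells, against 15.6, 8.17 and 3.43 RPKM in wild type cells (slope −0.27 ± 0.05, adjusted p = 0.0135). Gtf2h2, the p44 subunit of the TFIIH core, measured 16.5, 10.5 and 6.66 RPKM in Tet2 KO cells, against 25.8, 8.01 and 4.73 RPKM in wild type cells (slope −0.28 ± 0.05, adjusted p = 0.0217). For Gtf2h2 the wild type library at 0 h stood well above the other 5. The other 4 TFIIH members had slopes between −0.05 (Gtf2h1) and 0.05 (Gtf2h3), and none was called. Gtf3c4, a TFIIIC subunit, measured 7.79, 2.29 and 1.45 RPKM in Tet2 KO cells, against 6.49, 2.50 and 1.11 RPKM in wild type cells (slope −0.31 ± 0.05, adjusted p = 0.0138). Most of its decline came before 3 h in both genotypes. Gtf3c6, another TFIIIC subunit, had a slope of 0.06 and was not called (adjusted p = 0.632). It measured 42.2, 38.6 and 36.9 RPKM in Tet2 KO cells, against 17.4, 47.8 and 34.8 RPKM in wild type cells, so the wild type library at 0 h stood alone below the rest.

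In TFIID, Taf5, a scaffold subunit with WD40 repeats, measured 8.47, 4.89 and 2.69 RPKM in Tet2 KO cells, against 7.01, 4.39 and 2.29 RPKM in wild type cells (slope −0.22 ± 0.04, adjusted p = 0.0225). Taf8, which pairs with Taf10, measured 8.49, 4.64 and 3.39 RPKM in Tet2 KO cells, against 9.10, 4.95 and 3.38 RPKM in wild type cells (slope −0.19 ± 0.04, adjusted p = 0.0368). At each time the genotypes lay close together for both genes. Taf10 itself had a slope of 0.02 per h (adjusted p = 0.869). Taf3, whose PHD finger reads a promoter histone mark, fell short of the threshold, with 3.24, 1.37 and 0.869 RPKM in Tet2 KO cells, against 2.22, 1.71 and 0.729 RPKM in wild type cells (slope −0.17, adjusted p = 0.0703). The paralogs Taf4 and Taf4b had slopes of opposite sign, 0.08 and −0.11, neither called. Taf4 peaked at 6.06 RPKM in the Tet2 KO library at 3 h, and its other 5 values were at 3.72 RPKM or less. Taf4b declined to 36.1% of its 0 h level in Tet2 KO cells and 75.2% in wild type cells. Taf7, of the pair Taf7 and Taf7l, averaged 21.0 RPKM with a slope of −0.10, and Taf7l a slope of 0.04, neither called.

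For the 26 polymerase members, 65.4% of slopes were negative, against 72.1% over all loci. None was called, beside 7.91% of all loci called falling. With a pseudocount of 0.1 or a mean of at least 5 RPKM, Polr3d (adjusted p = 0.0497 and 0.0457) and Polr3e (adjusted p = 0.0487 and 0.0462) were called, and in wild type cells alone Polr2i (adjusted p = 0.0219) and Polr3f (adjusted p = 0.0449) were. The 7 members grouped with RNA polymerase II alone, Polr2m among them by its symbol, had a median slope of −0.01 per h. Polr2a was at −0.01 and Polr2b, the second largest subunit, at −0.04. Polr2a measured 28.6, 25.1 and 25.5 RPKM in Tet2 KO cells, against 25.2, 28.2 and 25.6 RPKM in wild type cells, so all 6 libraries lay within a narrow range. RNA polymerase III divided into members near 0 and members that came close to the threshold. Polr3d, which sits with Polr3e in a subcomplex next to the core, measured 11.9, 8.04 and 3.05 RPKM in Tet2 KO cells, against 12.6, 6.70 and 6.48 RPKM in wild type cells (slope −0.21 ± 0.05, adjusted p = 0.0502). Polr3e measured 11.4, 7.71 and 6.06 RPKM in Tet2 KO cells, against 15.3, 8.03 and 5.69 RPKM in wild type cells (slope −0.17 ± 0.04, adjusted p = 0.0513). Polr3f followed at −0.21 (adjusted p = 0.0653) and the largest subunit Polr3a at −0.14 (adjusted p = 0.0834). Polr3b, Polr3c, Polr3k, Polr3g and Polr3gl had slopes from −0.01 to 0.06. The 3 polymerase I subunits among the members ran from −0.10 (Polr1e) to −0.06 (Polr1b). Of 12 tested polymerase I and III factors outside the name pattern, 2 were called falling. These were the polymerase I subunits Twistnb (−0.24) and Cd3eap (−0.25). Of the 7 shared subunits, 5 had slopes at or above 0, from Polr1d at 0.00 to Polr2f at 0.06, and Polr2h, at −0.06, was the lowest.

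The highest slopes were those of Taf15 (0.11), Taf4 (0.08), Med25 (0.07), Gtf3c6 (0.06) and Polr3gl (0.06), and none passed the test. Taf15 measured 45.9, 34.5 and 64.4 RPKM in Tet2 KO cells, against 34.8, 54.8 and 63.4 RPKM in wild type cells (SE of the slope 0.05, adjusted p = 0.228). The genotypes were close at 6 h and apart at 3 h. The 5 lowest slopes, Med18, Med7, Gtf3c4, Gtf2h2 and Gtf2b, were all among the called. Gtf2ird1, of the TFII-I family, stood out by a single library: it measured 9.65, 23.9 and 6.39 RPKM in Tet2 KO cells, against 10.3, 7.09 and 4.88 RPKM in wild type cells.

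Of 49 tested partner genes outside the name pattern, 5 fell and none rose, beside a background of 7.91% of all loci falling and 0.118% rising. Ccnt1 and Ccnt2 encode the cyclins of P-TEFb, the kinase that releases paused polymerase II, and Hexim1 encodes its inhibitor. Ccnt1 measured 16.9, 7.41 and 5.35 RPKM in Tet2 KO cells, against 11.5, 7.12 and 3.10 RPKM in wild type cells (slope −0.26, adjusted p = 0.0158). Ccnt2 had a slope of −0.20 (adjusted p = 0.0234) and Hexim1 one of −0.23 (adjusted p = 0.0227). Twistnb and Cd3eap encode polymerase I subunits under other names, and they had slopes of −0.24 (adjusted p = 0.0212) and −0.25 (adjusted p = 0.019). Cd3eap measured 12.03, 8.08 and 3.66 RPKM in Tet2 KO cells, against 9.22, 6.73 and 2.57 RPKM in wild type cells, declining at each step in both. These calls depended on the processing. In the 16 alternative fits of the slope given below, Ccnt1 was called in 9, Cd3eap and Hexim1 in 8 each, Ccnt2 in 7 and Twistnb in 6. No partner was called between genotypes.

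Between genotypes, no member passed the test, beside a background of 0.0759% of loci called (9 loci) in a limma fit with time as a block. At an unadjusted p under 0.05 there were 5 members, beside a background of 10.8% of all loci. More members had a higher than a lower mean in Tet2 KO cells, 55 against 26 (67.9% higher, beside 54.7% of all loci), and their median difference was 0.13 on the log2(RPKM + 1) scale, against 0.04 over all loci. The difference between these medians was 0.09, and it lay between 0.07 and 0.10 in every alternative fit. The complexes were not alike in this. In TFIID 12 of 13 members and in RNA polymerase II 7 of 7 had a positive difference, with medians of 0.21 and 0.27. Taf7l, at a mean of 1.78 RPKM in Tet2 KO cells and 0.846 RPKM in wild type cells, passed the limit of 1 RPKM only through its Tet2 KO libraries, and without it, a choice made after seeing the data, the TFIID count was 11 of 12. In Mediator 9 were positive and 10 negative, with a median of −0.05, and the 5 common polymerase subunits had 2 positive and 3 negative. With quantile normalization the TFIID count was again 12 of 13, but that of RNA polymerase II was 4 of 7 and that of all members was 60.5% higher. At all 3 times alike, 23 members were higher in Tet2 KO cells, beside 20.8% of all loci, and 6 were lower, beside 14.1%.

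**Figure D4:**
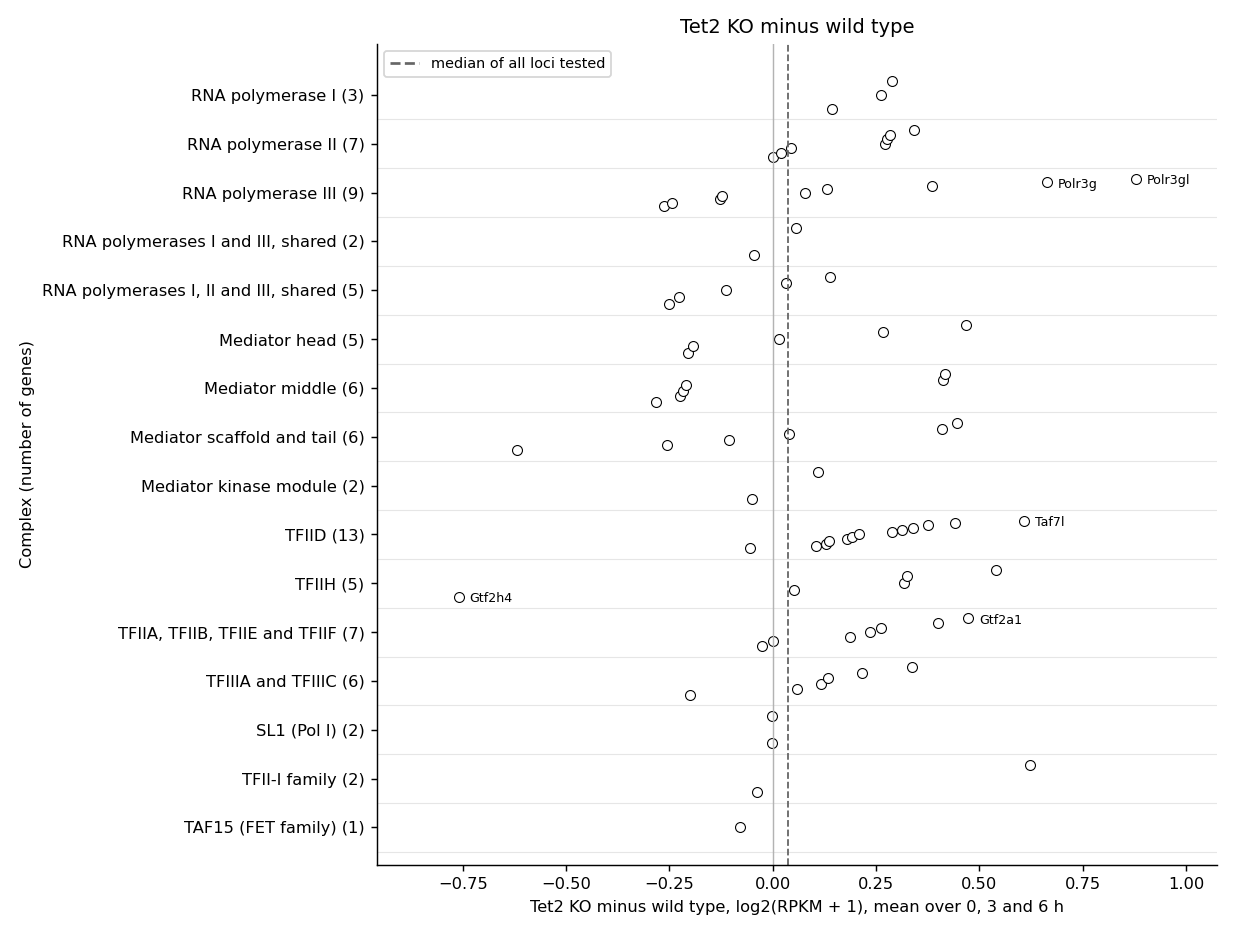
Tet2 KO minus wild type for each of the 81 genes, as the mean over 0, 3 and 6 h on the log2(RPKM + 1) scale, by complex, with the 5 genes of unadjusted p under 0.05 named and the median of all loci tested (0.04) as a dashed line. No gene passed the adjusted threshold; the TFIID and RNA polymerase II points lie mostly right of 0, and those of Mediator on both sides.

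The smallest p-values were those of a pair of paralogs. Polr3g and Polr3gl encode alternative versions of the same polymerase III subunit, of which Polr3g is known for its expression in pluripotent cells. Polr3gl measured 11.3, 20.8 and 13.2 RPKM in Tet2 KO cells, against 5.59, 8.88 and 8.38 RPKM in wild type cells. All 3 Tet2 KO values lay above all 3 wild type values. Both paralogs were picked for small p-values in these same libraries, so such a separation is not further support. The share of all loci so separated was not counted. The difference was 0.88 ± 0.20 on the log2 scale (SE, limma unadjusted p = 0.0046, adjusted p = 0.309). Polr3g measured 17.2, 23.7 and 18.4 RPKM in Tet2 KO cells, against 9.35, 15.5 and 11.9 RPKM in wild type cells, again without overlap (0.66 ± 0.18, limma adjusted p = 0.339). Both paralogs peaked at 3 h in both genotypes. How reads that fit both paralogs were counted is not given in the sources used here. Of the other 7 polymerase III members, Polr3k was also higher at each time in Tet2 KO cells, with 5.51, 6.67 and 6.13 RPKM, against 3.92, 5.36 and 4.11 RPKM in wild type cells (0.38 ± 0.20, limma adjusted p = 0.54). Polr3a and Polr3d went the other way, at −0.26 and −0.24.

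Gtf2h4, the p52 subunit of TFIIH, was the lowest member relative to wild type. It measured 12.8, 22.1 and 18.9 RPKM in Tet2 KO cells, against 29.6, 38.8 and 24.2 RPKM in wild type cells (−0.76 ± 0.21, limma adjusted p = 0.346). Every Tet2 KO value lay below every wild type value, but Gtf2h4 too was picked for its small p-value in these libraries. The other 4 TFIIH members had positive differences, from 0.05 (Gtf2h2) to 0.54 (Gtf2h3). Gtf2a1, the large subunit of TFIIA, measured 10.3, 11.3 and 7.44 RPKM in Tet2 KO cells, against 7.16, 7.60 and 5.28 RPKM in wild type cells (0.47 ± 0.19). Taf7l, the germ cell paralog of Taf7, measured 1.75, 1.92 and 1.67 RPKM in Tet2 KO cells, against 0.633, 0.619 and 1.29 RPKM in wild type cells (0.61 ± 0.24). These are low values, close to the limit of 1 RPKM. In Mediator, Med16, a tail subunit, had the lowest difference (−0.62 ± 0.29), with 1.92, 2.77 and 2.85 RPKM in Tet2 KO cells, against 6.19, 2.99 and 4.34 RPKM in wild type cells.

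The slopes of no member differed between genotypes by the test, beside a background of 0% of loci, and no member was at an unadjusted p under 0.05, beside a background of 4.12%. The smallest p-values were those of Med27, Polr2i and Gtf2h1. Med27, of the upper tail, measured 7.27, 10.4 and 9.03 RPKM in Tet2 KO cells, against 12.9, 3.92 and 4.47 RPKM in wild type cells (slope in Tet2 KO minus slope in wild type 0.27 ± 0.13, limma unadjusted p = 0.061). Polr2i, the RPB9 subunit that bears on the accuracy of transcription, measured 14.5, 34.4 and 16.4 RPKM in Tet2 KO cells, against 32.0, 24.6 and 9.85 RPKM in wild type cells (0.30 ± 0.14, limma unadjusted p = 0.0657). The Tet2 KO library at 3 h and the wild type library at 6 h held its extremes. Gtf2h1, the p62 subunit of TFIIH, measured 63.9, 53.8 and 35.0 RPKM in Tet2 KO cells, against 34.5, 44.2 and 40.2 RPKM in wild type cells (−0.18 ± 0.10, limma unadjusted p = 0.0935). Without the Tet2 KO library at 6 h, the slope difference of Polr2i was 0.66 per h, but its Tet2 KO slope then rested on 0 and 3 h alone.

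The bisulfite tables listed 4781 sites in Tet2 KO cells and 4128 in wild type cells, of which 1039 were in both. Each gives the fraction of reads left unconverted, in 2 replicates per genotype, from 0.1 upward and with no coverage, so the depth behind a level is unknown and a site absent from a table may be below 0.1 or not covered. Sites were placed by position and strand within gene bounds of GRCm38.p6; positions in exons, introns or UTRs were not analysed here. In the members there were 67 sites in 38 genes, 46.9% of the members, beside 40.7% of 8539 single-symbol protein-coding genes. The 38 genes are longer, with a median span of 28682.5 bases, against 8222 bases in the 43 without a site, while their median levels were alike (12.7 RPKM in both). Of the 67 sites, 34 were listed only in Tet2 KO cells (50.7%, against 47.5% of all sites), 21 only in wild type cells (31.3%, against 39.3%) and 12 in both (17.9%, against 13.2%). TFIID genes held 22 of them, in 8 of 13 genes, and the 5 common polymerase subunits and SL1 held none. The median level was 0.1375 over the 46 sites listed in Tet2 KO cells and 0.1625 over the 33 listed in wild type cells, while over all sites it was 0.1485 in Tet2 KO cells and 0.143 in wild type cells. The median gap between replicates was 0.033 in Tet2 KO cells and 0.039 in wild type cells.

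At the 12 shared sites, levels were higher in Tet2 KO cells at 4 and lower at 8, with a mean difference of −0.018 ± 0.066 (SD over sites). Over all 1039 shared sites, 51.6% were higher in Tet2 KO cells and the mean difference was 0.0053. None of the 12 passed the test (limma on arcsine square root levels over all 1039 shared sites, background 0%), and 1 was at an unadjusted p under 0.05, as were 79 of all shared sites. The replicates of the genotypes did not overlap at 3 of the 12, beside a background of 34.9% of shared sites. Polr2a had the widest of these gaps: at chr11:69743869, on the minus strand, its levels were 0.167 and 0.125 in Tet2 KO cells, against 0.263 and 0.273 in wild type cells (adjusted p = 0.518). Taf1, the largest TFIID subunit, went the other way at chrX:101599528, on the plus strand, in the last part of the gene, with 0.333 and 0.360 in Tet2 KO cells, against 0.286 and 0.167 in wild type cells (adjusted p = 0.647). The highest shared level in wild type cells was in Gtf2i at chr5:134314450, on the minus strand, with 0.263 and 0.333 in Tet2 KO cells, against 0.3 and 0.471 in wild type cells. In wild type cells the replicates of this site differed by more than the genotype means did. The second polymerase II site shared by both tables was in Polr2b at chr5:77343193, with 0.136 and 0.133 in Tet2 KO cells, against 0.263 and 0.136 in wild type cells. Med17, the only called Mediator gene with a shared site, had 0.2 and 0.141 in Tet2 KO cells, against 0.136 and 0.273 in wild type cells, 268 bases from its 5′ bound. Polr1e was nearly level, at 0.151 and 0.134 in Tet2 KO cells, against 0.143 and 0.135 in wild type cells. Gtf3a, which codes for the 5S RNA gene factor TFIIIA, was at 0.130 and 0.204 in Tet2 KO cells, against 0.227 and 0.193 in wild type cells.

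**Figure D5:**
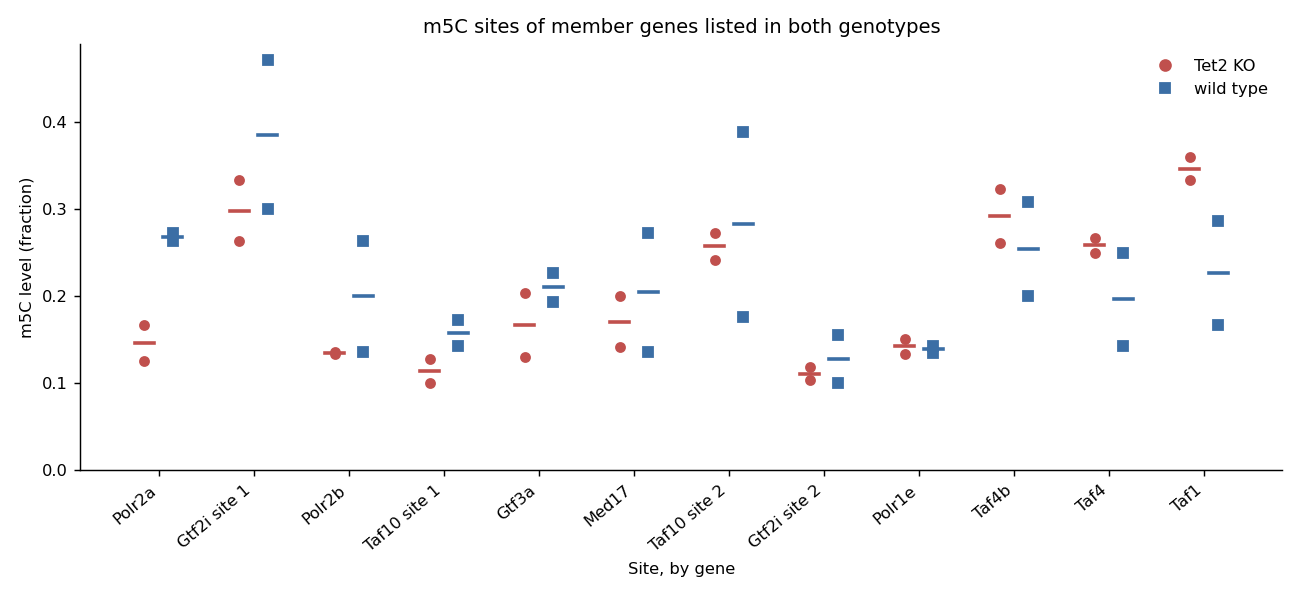
m5C level (fraction of unconverted reads) in each replicate at the 12 member sites listed in both tables, Tet2 KO as red circles left of wild type as blue squares, bars at the means, ordered by the difference of means from lowest (Polr2a) to highest (Taf1). Sites of 1 gene are numbered from its 5′ end; only at Polr2a, Taf10 site 1 and Taf1 do the replicates of the genotypes not overlap.

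A pair of TFIID genes carried runs of sites near the 5′ end. Taf10 held 8 sites between 209 and 440 bases from its 5′ bound (chr7:105743935 to chr7:105744166, minus strand), the most of any member, of which 4 were listed only in Tet2 KO cells and 2 only in wild type cells. At the shared site nearest the 5′ end the levels were 0.1 and 0.128 in Tet2 KO cells, against 0.173 and 0.143 in wild type cells. At the farthest they were 0.273 and 0.241 in Tet2 KO cells, against 0.389 and 0.176 in wild type cells, so the sign was the same and the wild type replicates were wide apart. Taf4 held 6 sites between 161 and 836 bases from its 5′ bound, 4 of them listed only in wild type cells. Its shared site, at chr2:179975810, was at 0.267 and 0.250 in Tet2 KO cells, against 0.143 and 0.250 in wild type cells. The paralog Taf4b also held 2 sites within 364 bases of its 5′ bound, the shared one at 0.261 and 0.323 in Tet2 KO cells, against 0.2 and 0.308 in wild type cells. In all, 19 of the 67 sites lay within 1000 bases of a 5′ bound, in 6 genes, and 20 lay at 90% or more of the way to the 3′ bound. Another listed site lay within 50 bases for 18 of the 67. Taf10, which spans 1482 bases, and Taf4 held 8 and 6 of the 19. These counts were not compared with the same counts over all listed sites.

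Among sites listed in Tet2 KO cells alone, the highest were in Polr1a, the largest polymerase I subunit, at 0.286 and 0.290, and in Taf8, at 0.263 and 0.310. Gtf2h1 held 2 such sites, the higher at 0.273 and 0.2, and Polr3gl and Gtf2e1 held 2 each, all under 0.2 on average. Polr3b held 3, all at or near the lowest listed level, in the last part of the gene. Med13 and Taf5 held 1 each, at means of 0.164 and 0.138, so 4 of the 10 genes with a falling slope had a site. Med1 and Polr3e had sites listed in Tet2 KO cells alone whose replicates were far apart, at 0.312 and 0.15 and at 0.308 and 0.111. Among sites listed in wild type cells alone, the highest by mean was in Gtf2f1, of TFIIF, at 0.2 and 0.231, followed by the pair in Taf10, at 0.143 and 0.286 and at 0.308 and 0.111. Med16 and Med25 held 2 each, from 0.115 to 0.1905 on average. The other genes with sites were Med13l, Med15, Taf15 and Gtf2i with 2, and Med30, Polr1b, Polr1c, Polr1d, Polr3f, Gtf2a2, Gtf2h3, Gtf2ird1, Gtf3c1, Gtf3c3, Taf12 and Taf3 with 1. The 38 genes with a site had a median slope of −0.06 per h and a median genotype difference of 0.12, against −0.05 and 0.13 in the 43 without.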

How the data were processed

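RNA-seq levels were deposited by the authors as RPKM per locus, 1 library per genotype and time; m5C levels were deposited as a fraction of reads per site and replicate. The submitters' processing notes name Bowtie2, MACS2, DESeq2, Cufflinks, Trimmomatic and the build mm10 (GRCm38), without versions. Of 18 samples, 10 were used; the other 8, from m5C immunoprecipitation and its inputs, were not analysed here. No counts or coverage are in these tables, so no interval for counting error is given. Members and gene lists were chosen with earlier results of these data known. Values were analysed as log2(RPKM + 1) for loci with a mean of at least 1 RPKM, with limma 3.58.1 in R 4.3.3 (moderated variances with a mean trend) and Benjamini-Hochberg adjustment over 11855 loci at 0.05. Residual degrees of freedom were 2 for the genotype comparison, which blocked on time, 3 for the slope, which adjusted for genotype, and 2 for the interaction that tests whether slopes differ. Levels at 1039 shared sites were compared by limma on the arcsine square root scale. The site tables name no gene, so sites were placed by position and strand, and 11 genes with no promoter entry took sites of either strand. Named genes were those called, the 5 lowest and 5 highest slopes, the 3 smallest p-values of the genotype and slope difference fits, the extremes of each complex, shared subunits, paralog pairs, genes with a site and partner genes called. Members just short of the threshold, and those singled out for 1 library, were chosen after their values were seen. Alternatives covered scaling, pseudocount, filters, single genotypes, single times and each library left out. The fits of RNA levels were tested on simulated log2 values, drawn independently and without a shift common to a library. The simulated data did not cover the other steps.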

Additional observations from a re-analysis of the deposited data

Results flagged for a closer look

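In 8 members, both 3 h and 6 h lay above 0 h in 1 genotype and below 0 h in the other. The share of all loci that meet this rule was not counted, so the 8 cannot be called unusual. The difference of slopes, Tet2 KO minus wild type in log2(RPKM + 1) per h, was tested in the limma interaction fit, and none passed (adjusted p = 0.999583 for each, smallest unadjusted p 0.061). It was positive, with levels up in Tet2 KO cells and down in wild type cells, for Polr2i (0.296), Med27 (0.271), Polr2m (0.142), Med16 (0.138) and Polr2l (0.111). It was negative for Gtf3c6 (−0.192), Gtf2h1 (−0.178) and Polr2a (−0.0295). Both times are set against the same single 0 h library of a genotype.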

How the results depend on the processing

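No member was called between genotypes in any alternative, and all slopes named as falling were negative in every alternative that held the gene. The number of members called for their slope was 10, and it was 2 with quantile normalization, 1 with libraries shifted to the same median, 0 with 3 h against 0 h alone, 0 in Tet2 KO cells alone, 9 in wild type cells alone, 12 with a pseudocount of 0.1 and 0 to 15 with 1 library left out. Med18 was called in 14 and Taf8 in 4 of 16 alternative fits of the slope. Among these, the setting that counts loci of several symbols reuses the main fit, so each gene's result there repeats the main one. The median genotype difference of the members minus that of all loci was 0.092, and it was 0.0694 with quantile normalization, 0.0688 with a mean of at least 5 RPKM, 0.0725 with loci of several symbols counted and 0.074 to 0.102 with 1 library left out. The median slope of the members minus that of all loci was −0.0052 per h, and it was −0.00057 with a pseudocount of 0.1, −0.0125 without a filter, −0.012 with a mean of at least 5 RPKM, 0.0023 in Tet2 KO cells alone and −0.0078 to 0.0020 with 1 library left out. The number of members called for a slope difference was 0. It was 0 to 1 with 1 library left out (Polr2i, without the Tet2 KO library at 6 h). The share of all loci called in those fits was not compared. The 67 sites became 10 when a level of 0.2 in both replicates was required. No shared site of the members was called with the replicate block (0 members) or without it. The pairing check, which correlates the replicate 1 deviations of the genotypes, gave r = −0.0034 over 1039 sites. Counting noise at single sites can give such a value, so the check cannot decide whether the numbers pair the samples. A fit that leaves out a library assumes that a lone sample varies like the others. The alternative that takes genes from a column of the site tables could not be run, since they hold none. The cause of these shifts was not tested, and depth is unknown for RNA and sites alike.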

Other observations

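Genes of the same families that fell outside the rule held 13 sites in 7 genes. The highest was in Med24, a Mediator tail subunit whose locus is listed with an overlapping gene, at chr11:98718053, with 0.579 and 0.615 in Tet2 KO cells, against 0.467 and 0.505 in wild type cells, without overlap. Med12, of the kinase module, had a site at chrX:101278303 that was listed in Tet2 KO cells alone, at 0.533 and 0.478. Both levels are above the highest of the 67 member sites, which was a mean of 0.3465 in Tet2 KO cells and 0.3855 in wild type cells. These were singled out after their values were seen. None of the 6 loci of several symbols was called for its slope or between genotypes by limma; Med23 came nearest, with a slope of −0.15 per h (adjusted p = 0.079). Across the 81 members, the excess of the 3 h level over the mean of 0 and 6 h had a Spearman rho with gene span of −0.29 in Tet2 KO cells and −0.11 in wild type cells, given as a description over genes that share libraries.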
